A study of Mus musculus with 8 samples.

Results

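The genes described here are 10 members of the Notch pathway: the receptors Notch1, Notch2 and Notch4, the ligands Jag1, Jag2, Dll1 and Dll4, and the target genes Hes1, Hes5 and Hey1. They were chosen by name, as the rows of the deposited table whose gene symbol is on this list, and all 10 were found among 23420 named genes. The question was how the reads of these genes were divided between the mouse limbus, the rim of tissue around the cornea that holds the epithelial stem cells, and the cornea inside that rim. Limbal rims and corneal buttons were cut from 16 eyes of wild-type C57BL/6J mice aged 8 weeks, no treatment is named, and each tissue was pooled before RNA extraction. Stranded total RNA libraries were sequenced, and the labels list 8 samples, 4 per tissue. Their numbers, L001 to L004, are of the form used for lanes of a sequencer, and the table gives no value for any of them. Its means are built from 1 cornea and 1 limbus library, with 26104317 and 21182025 reads on named genes.

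With 1 library per tissue there was no spread between animals or between dissections, and no test of the tissues was possible. Reads per gene were worked back from the deposited means. Normalized reads are read numbers after division by the size factor of their library, 1.0337 for the cornea and 0.9674 for the limbus. Every ratio is limbus over cornea on the log2 scale unless stated otherwise, and each range beside a ratio is an exact Clopper-Pearson 95% interval that covers counting error only. A gene is called higher in a tissue "beyond counting error" when it has more than 3 reads in both libraries and its interval leaves out 0, which compares these libraries and not the tissues in general. The header does not name the side of the comparison that is the cornea. The order cornea against limbus was used, under which Krt12, the keratin of corneal epithelium, and Kera, the keratocyte proteoglycan, lie on the cornea side, where the study's text places them.

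Notch receptors are cut when a Jagged or Delta-like ligand on a neighbouring cell binds and pulls on them. The freed intracellular part enters the nucleus, joins the DNA-binding protein Rbpj and a Mastermind coactivator, and switches on target genes, among them the Hes and Hey repressors. In stratified epithelia such as that of the cornea the pathway is known for its part in differentiation, and Dll4, Notch4 and Hey1 are known from the endothelium of blood vessels. A healthy cornea has no blood vessels, whereas the limbus carries them.

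The members did not share a direction. Of the 7 with more than 3 reads in both libraries, 4 (Notch1, Notch2, Jag2 and Hey1) lay beyond counting error on the limbal side, against 33.2% of the 13862 genes tested that way. Another 2, Jag1 and Hes1, lay on the corneal side, against 40.6% of all genes tested, and Dll1 was on neither side. With no filter on low reads and a floor of 3 reads, Notch4 and Dll4 joined the limbal side, which made 6 members there against 34% of 15572 genes, while the 2 on the corneal side stood against 36.5%. Most genes at this depth thus lie beyond counting error, and the number of members that do so is not a result about the members. The size of the differences separated them more: Notch1, Notch2, Jag1, Jag2, Dll1 and Hes1 lay between -0.69 and 0.31 on the log2 scale, while Notch4, Dll4 and Hey1 had at most 4 corneal reads and 45 to 69 limbal reads. The median of the 7 ratios was 0.23, and that of all 13862 genes was -0.05. With every gene at 3 reads or fewer set to 3 reads, the medians were 0.24 for the members and 0.01 for all genes.

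**Figure D1:**
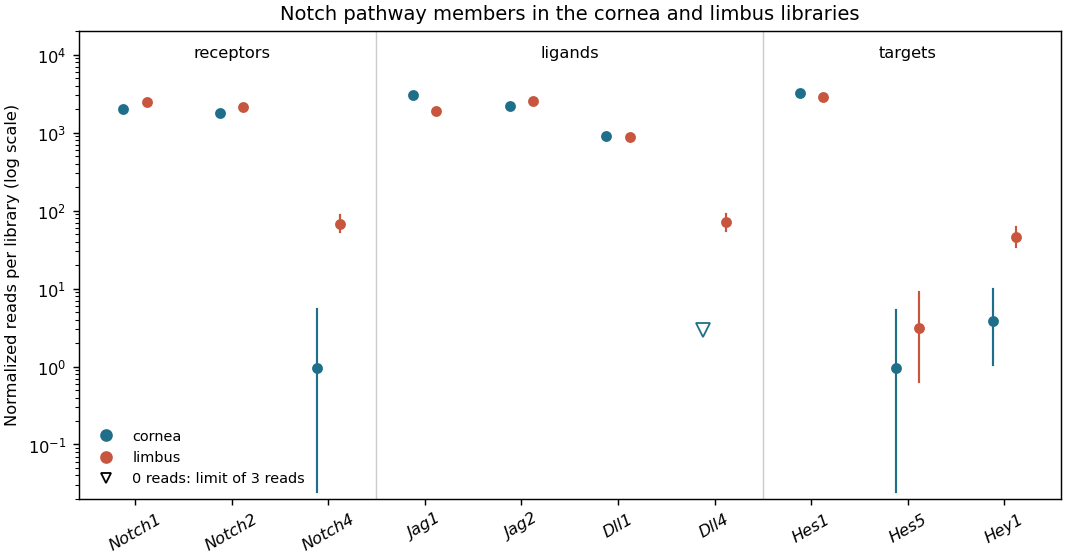
Normalized reads of the 10 members in the cornea library (blue) and the limbus library (red) on a log axis, by role, with exact Poisson 95% intervals, and an open triangle at the limit of 3 reads for Dll4, which had 0 corneal reads. Notch1, Notch2, Jag1, Jag2, Dll1 and Hes1 lie between 872 and 3274 in both libraries, whereas Notch4, Dll4 and Hey1 have 0 to 3.87 in the cornea and 46.5 to 71.3 in the limbus.

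The receptors Notch1 and Notch2 were both slightly higher in the limbus. Notch1, the main receptor of many epithelia, had 2070 corneal and 2398 limbal reads, or 2002 and 2479 normalized reads. Its ratio was 0.31 (0.22 to 0.39), 1.24-fold higher in the limbus, and 30.2% of the genes tested had a higher ratio. Notch2, its close relative, had 1850 and 2051 reads, or 1790 and 2120 normalized reads, a ratio of 0.24 (0.15 to 0.34) and a 1.18-fold difference. The pair kept nearly the same proportion: Notch1 had 1.12 corneal and 1.17 limbal reads per Notch2 read, a change of 0.06 (-0.06 to 0.19) on the log2 scale that needs no size factor, with an exact conditional interval of the odds ratio. This comparison of the pair was not planned beforehand. Notch1 lies on chr2:26457903-26516663 (minus strand) and Notch2 on chr3:98013527-98150361 (plus strand) of GRCm38.

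Notch4, the receptor known from vascular endothelium, was almost absent from the cornea library. It had 1 read there and 66 limbal reads, or 0.967 and 68.2 normalized reads, and the ratio was 6.14 with a wide interval of 3.61 to 11.47. With the single corneal read set to the limit of 3 reads, the ratio was 4.56. Whether fewer cells of a type or less RNA per cell lies behind such a difference cannot be told apart in bulk tissue. Notch4 lies on chr17:34564268-34588503 (plus strand). Its promoter window, chr17:34564045-34564344 on the plus strand, is shown because Notch4 and Dll4 had the most uneven reads of the members. RefSeq gives it on GRCm38.p6, from 250 bases before the start to 50 after it, as do all windows below. Capitals mark the motifs searched on both strands, which were TGGGAA and GTGGGAA, the core bound by Rbpj, and CACNAG, the N box bound by Hes repressors. The longer Rbpj core contains the shorter. No capitals appear in the Notch4 window, which also holds 5 CpG pairs where the median of all windows is 7.
Notch4: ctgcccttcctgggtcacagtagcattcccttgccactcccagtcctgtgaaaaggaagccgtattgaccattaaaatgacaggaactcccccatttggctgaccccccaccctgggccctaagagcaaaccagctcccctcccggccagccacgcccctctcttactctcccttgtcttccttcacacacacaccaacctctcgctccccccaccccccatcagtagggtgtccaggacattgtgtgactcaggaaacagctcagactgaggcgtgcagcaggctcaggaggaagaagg

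The ligands Jag1 and Jag2 went opposite ways. Jag1, a Jagged ligand of epithelium and vessels alike, had 3126 corneal and 1812 limbal reads, or 3024 and 1873 normalized reads. It was 1.61-fold higher in the cornea, with a ratio of -0.69 (-0.78 to -0.61), and 17.6% of the genes tested had a lower ratio. Jag2, the other Jagged ligand, had 2271 corneal and 2495 limbal reads, 2197 and 2579 after normalization, a ratio of 0.23 (0.15 to 0.31). Within a library, where no size factor enters, the cornea held 1.38 Jag1 reads per Jag2 read and the limbus 0.726. The pair therefore changed places in read number, by -0.92 (-1.04 to -0.80) on the log2 scale, and this comparison was chosen after the values were seen. Jag1 lies on chr2:137081456-137116644 and Jag2 on chr12:112907819-112929776, both on the minus strand.

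Among the Delta-like ligands, Dll1 and Dll4 differed from each other in both level and distribution. Dll1 had 938 corneal and 844 limbal reads, or 907 and 872 normalized reads, and its ratio of -0.06 had an interval from -0.19 to 0.08. Dll1, on chr17:15367354-15376872 (minus strand), was the member whose interval included 0. Dll4, the endothelial ligand on chr2:119325784-119335962 (plus strand), had no corneal read, that is 0, and 69 limbal reads. A count of 0 allows up to 3 reads, so that Dll4 was at least 8.07-fold higher in the limbus. An annotated gene on the opposite strand, Gm14207, overlaps Dll4 and had 0 and 9 reads. The sources used here do not state whether counting kept to strand, so the reads of the overlap may belong to either.

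The promoter windows of Jag1 and Dll4 are set side by side because these ligands leaned to opposite tissues. The Jag1 window is chr2:137116471-137116770 (minus strand) and that of Dll4 is chr2:119325534-119325833 (plus strand), and the sequences run 5′ to 3′ along the gene. The 1 match in them is an N box in Dll4 that begins 75 bases before the start. N boxes were found in the windows of 4 of the 8 members that have one (Dll1, Dll4, Notch1 and Notch2), and in 42.5% of all 32851 windows. The windows held 22 CpG pairs in Jag1 and 17 in Dll4. A match is a description of the sequence and not of binding.
Jag1: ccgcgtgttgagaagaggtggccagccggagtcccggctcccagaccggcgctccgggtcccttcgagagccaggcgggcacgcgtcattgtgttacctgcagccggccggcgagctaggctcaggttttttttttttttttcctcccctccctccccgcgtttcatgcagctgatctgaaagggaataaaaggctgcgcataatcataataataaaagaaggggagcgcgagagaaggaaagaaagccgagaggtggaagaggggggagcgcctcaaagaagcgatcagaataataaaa
Dll4: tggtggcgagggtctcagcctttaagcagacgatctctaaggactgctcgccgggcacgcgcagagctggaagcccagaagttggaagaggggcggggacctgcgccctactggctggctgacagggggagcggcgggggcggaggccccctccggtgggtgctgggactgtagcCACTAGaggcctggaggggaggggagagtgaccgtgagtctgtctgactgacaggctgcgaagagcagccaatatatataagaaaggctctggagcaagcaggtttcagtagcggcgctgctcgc

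**Figure D2:**
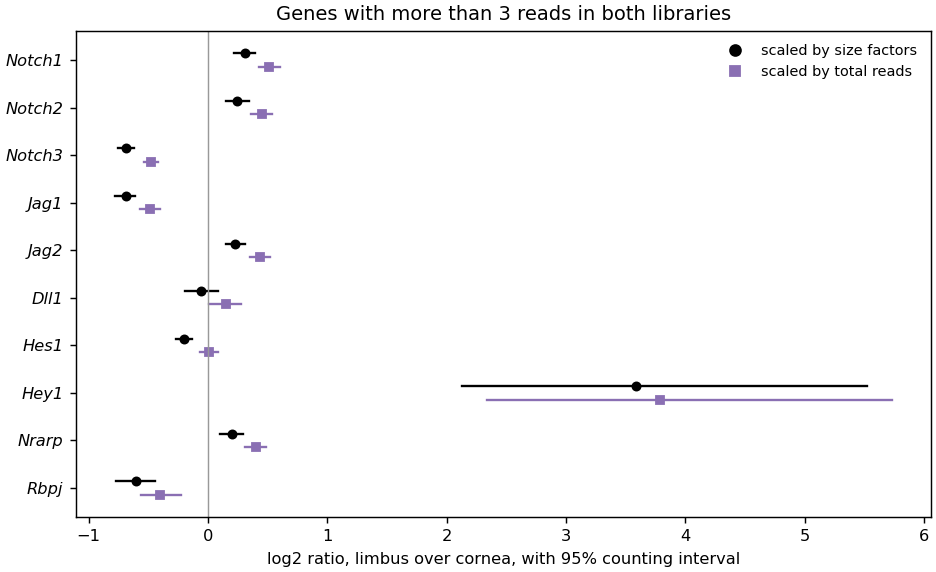
Log2 ratio of limbus over cornea with exact 95% counting intervals, scaled by size factors (black circles) and by total reads (purple squares), for the 7 members over the limit of 3 reads in each library and for Notch3, Nrarp and Rbpj. Every square lies 0.21 to the right of its circle, which takes Hes1 from -0.20 to 0.01 and leaves Jag1 on the cornea side at -0.49.

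The targets were carried by Hes1 in both tissues. Hes1, the helix-loop-helix repressor that responds to Notch in many tissues, had 3384 corneal and 2756 limbal reads, or 3274 and 2849 normalized reads. Its ratio of -0.20 (-0.27 to -0.13) made it 1.15-fold higher in the cornea, and 41.4% of the genes tested lay lower still. The direction rests on the scaling: with the libraries scaled by their total reads, the ratio was 0.01 (-0.07 to 0.08). Per Notch1 read the cornea held 1.63 Hes1 reads and the limbus 1.15, a change of -0.51 (-0.62 to -0.40) that no scaling moves. This pair was not planned beforehand, and its change reflects the ratio of Notch1 (0.31) as well as that of Hes1 (-0.20). Hes1 lies on chr16:30064384-30067796 (plus strand).

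Hey1, a repressor of the related Hey family that is known from endothelium, followed Dll4 and Notch4 rather than Hes1 in its reads. Its 4 corneal and 45 limbal reads gave 3.87 and 46.5 normalized reads. This is a 12-fold difference (4.38 to 46), or 3.59 (2.13 to 5.52) on the log2 scale, and 1.9% of the genes tested had a higher ratio. Hey1 lies on chr3:8663359-8667256 (minus strand). Hes5, a Notch target best known from the nervous system, had 1 corneal read and 3 limbal reads, both at or under the limit of 3 reads, so no fold is given. It lies on chr4:154960923-154962371 (plus strand).

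The Hes5 window is printed because it was the member window with the Rbpj core, while its gene was the least read member. The window is chr4:154960673-154960972 (plus strand). The core with its flanking G stands on the minus strand 226 bases before the start and on the plus strand 83 bases before it. TGGGAA occurs in 25.6% and GTGGGAA in 6.38% of all windows, and no other member window held either. Hes1 and Hey1 have no window in the table used.
Hes5: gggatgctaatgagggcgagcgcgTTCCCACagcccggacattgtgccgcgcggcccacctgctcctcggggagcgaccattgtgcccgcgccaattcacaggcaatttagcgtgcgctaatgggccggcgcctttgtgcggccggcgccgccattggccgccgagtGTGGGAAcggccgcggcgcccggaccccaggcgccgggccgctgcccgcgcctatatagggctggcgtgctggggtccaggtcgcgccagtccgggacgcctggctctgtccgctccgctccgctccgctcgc

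**Figure D3:**
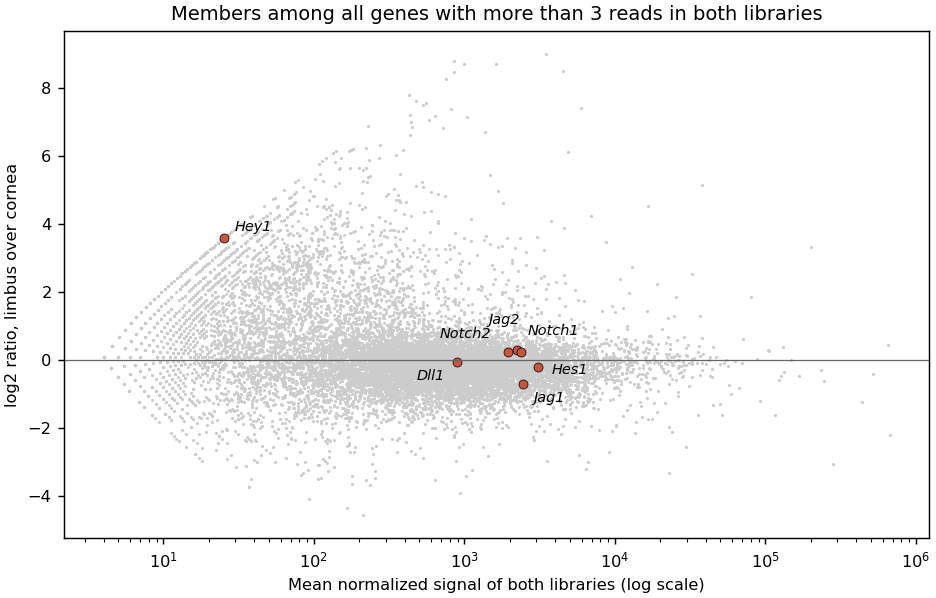
Log2 ratio of limbus over cornea against the mean normalized signal on a log axis, for every gene over the limit of 3 reads in each library (grey) and the 7 such members (red, labelled). Hey1 lies high in the cloud at low signal, with 1.9% of genes above it, and Notch1, Notch2, Jag1, Jag2, Dll1 and Hes1 lie within the dense grey band, between -0.69 and 0.31.

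The levels of different genes were compared per length, as normalized reads per kilobase of annotated exon with exact Poisson 95% intervals, counting error only. Hes1 was the highest member in both tissues, with 1607 (1553 to 1662) in the cornea and 1399 (1347 to 1452) in the limbus. In the cornea it was followed by Jag1 at 519 (501 to 537), Jag2 at 315 (303 to 329), Dll1 at 215 (202 to 229), Notch2 at 166 (159 to 174) and Notch1 at 141 (135 to 147). No neighbours among these 6 had overlapping intervals. The remaining members were at 1.19 (0.323 to 3.03) for Hey1, 0.71 (0.018 to 3.95) for Hes5, 0.12 (0.00304 to 0.669) for Notch4 and 0 (up to 0.753 at the limit of 3 reads) for Dll4, and their intervals overlapped.

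In the limbus the order of the Jagged ligands turned: Jag2 was at 370 (356 to 385) and Jag1 at 321 (307 to 337). Dll1 at 207 (193 to 221) and Notch2 at 197 (188 to 205) could not be separated by their intervals, and Notch1 followed at 174 (167 to 181). Dll4 reached 18.5 (14.4 to 23.4), Hey1 14.2 (10.4 to 19.1), Notch4 8.46 (6.55 to 10.8) and Hes5 2.28 (0.469 to 6.65), each overlapping its neighbour. The order of Notch1 and Notch2 depends on the length used. Against the longest coding transcript, a choice added after the values were seen, Notch1 stood 1.24 times (cornea) and 1.29 times (limbus) as high as Notch2, whereas over all exons it stood at 0.848 and 0.886. Jag1 over Jag2 was 1.65 (cornea) and 0.868 (limbus) over all exons, and 1.25 and 0.661 with the longest coding transcript.

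**Figure D4:**
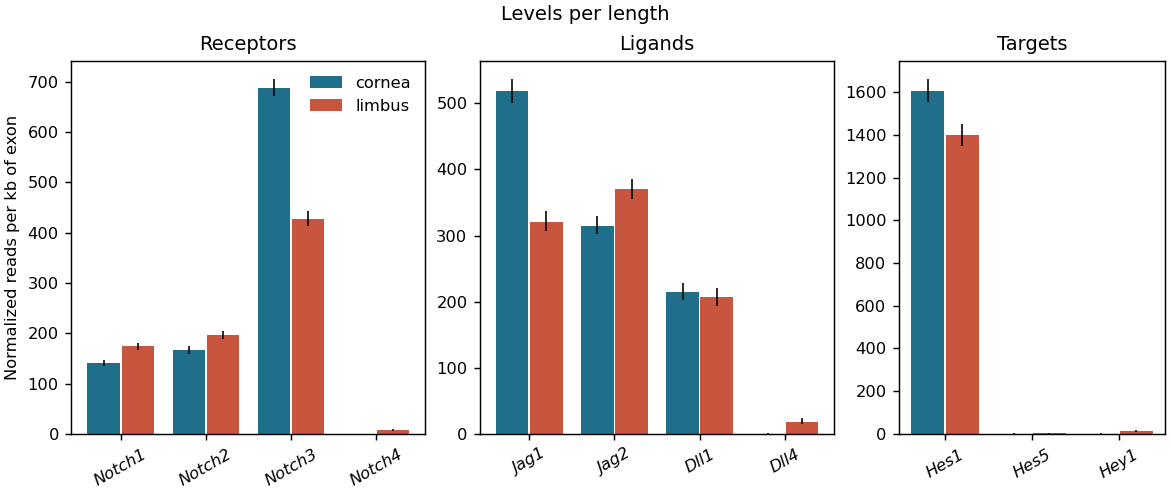
Normalized reads per kilobase of exon in the cornea (blue) and the limbus (red), with exact Poisson 95% intervals, as bars in 1 panel per role, each with its own linear axis from 0, and with Notch3 added to the receptors. Hes1 is highest of the members at 1607 and 1399, Jag1 stands above Jag2 in the cornea (519 and 315) and below it in the limbus (321 and 370), and Notch3 is the highest receptor at 688 and 428.

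Shares of the summed level per length show the same within each role. Of the 4 ligands, Jag1 held 49.5% (cornea) and 35.1% (limbus), Jag2 30.1% and 40.4%, and Dll1 20.5% and 22.5%. Dll4 held 2.02% in the limbus. Of the 4 mouse receptors, with Notch3 added from outside the list of members, Notch1 held 14.1% (cornea) and 21.6% (limbus), Notch2 16.7% and 24.4%, and Notch4 0.0121% and 1.05%. Notch3 held the rest, 69.2% and 53%. With the longest coding transcript as length, Notch3 held 64.5% (cornea) and 47.7% (limbus), Notch1 19.6% and 28.9%, and Notch2 15.8% and 22.3%. Among Hes1, Hes5 and Hey1, Hes1 took 99.9% and 98.8%, and Hey1 0.0737% and 1.01%.

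Notch3, the receptor best known from vascular smooth muscle, had the most reads of any receptor in both libraries. It had 5755 corneal and 3349 limbal reads, and was 1.61-fold higher in the cornea, with a ratio of -0.69 (-0.75 to -0.62). The number of Jag1 reads per Notch3 read was 0.543 (cornea) and 0.541 (limbus), a change of -0.01 (-0.11 to 0.10). Per Notch1 read the cornea held 2.78 Notch3 reads and the limbus 1.4, a change of -0.99 (-1.10 to -0.89). These pairs, too, were chosen after the values were seen.

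A list of 52 other genes of the pathway was set beside the members. Of these, 44 had more than 3 reads in both libraries, and beyond counting error 21 leaned to the limbus, 15 to the cornea and 8 to neither. Their median ratio was 0.14, with a range from -0.97 (Ccnd1, a cyclin) to 3.72 (Heyl, a Hey family repressor). Among all genes tested, the corresponding shares were 33.2% and 40.6%. Of the other ligands, Dlk2, a noncanonical Delta-like protein, had 98 corneal and 618 limbal reads, a ratio of 2.75 (2.44 to 3.08). Of 3 genes for ligand endocytosis, 2 leaned to the limbus and none to the cornea, and of 4 glycosyltransferases with reads enough, 1 leaned each way. The 9 genes of receptor cleavage divided evenly, 3 to each side and 3 to neither. Those on the corneal side include the sheddases Adam10, with 2341 and 1333 reads and a ratio of -0.72 (-0.81 to -0.62), and Adam17, with 2848 and 1791 reads and a ratio of -0.57 (-0.66 to -0.49), both named after their values were seen.

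The genes of the nuclear complex did not share a direction. Rbpj, the DNA-binding partner of all Notch receptors, had 816 corneal and 503 limbal reads, a ratio of -0.60 (-0.77 to -0.44). The coactivators Maml2 and Maml3, named after their values were seen, had ratios of -0.40 (-0.56 to -0.24) and -0.52 (-0.69 to -0.36), while Maml1 was at 0.08 (-0.08 to 0.24). The Groucho corepressors Tle1 and Tle2 lay the other way, Tle1 with 37 corneal and 280 limbal reads, 3.02 (2.52 to 3.55), and Tle2 with 42 and 201, 2.35 (1.87 to 2.87), while their relatives Tle3 and Tle4 stood at 0.33 and -0.53. In all, 4 of the 11 genes of this group leaned to the limbus and 6 to the cornea, beside 33.2% and 40.6% of all genes, and Maml1, Tle3 and Tle4 were likewise named after their values were seen.

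Of the 6 genes beyond the members that were grouped as targets and feedback and had reads enough, 5 leaned to the limbus. Of 8 grouped as negative regulators, 5 (Numbl and the Deltex genes Dtx1, Dtx2, Dtx3 and Dtx4) leaned to the limbus. The other 3 (Numb, Itch and Fbxw7) leaned to the cornea. Of all genes tested, 33.2% and 40.6% lay on those sides. Both groups are by list, and no gene's response to Notch or effect on it was tested. The exception among the targets, the cyclin Ccnd1, had the most reads of them, 11165 corneal and 5338 limbal, and a ratio of -0.97 (-1.02 to -0.92). Hes6 and Myc, with 276 and 438 and with 549 and 763 reads, stood at 0.76 (0.54 to 0.98) and 0.57 (0.41 to 0.73). Ccnd1, Hes6 and Myc were named after their values were seen. Nrarp, a feedback inhibitor that Notch switches on, had 1840 corneal and 1973 limbal reads, a ratio of 0.20 (0.10 to 0.29), where the target Hes1 was at -0.20. Id1, a helix-loop-helix inhibitor better known as a BMP target, had 662 and 3783 reads, a ratio of 2.61 (2.49 to 2.73). Dtx3, of the Deltex family of ubiquitin ligases, had 169 and 686 reads, a ratio of 2.12 (1.87 to 2.37). Heyl, with 6 and 74 reads, had a ratio of 3.72 (2.53 to 5.21), and Dtx1, with 7 and 64 reads, one of 3.29 (2.16 to 4.66), beside 3.59 (2.13 to 5.52) for Hey1. Mfng, a fringe that adds sugars to Notch, had 1 and 69 reads. These 3 were named after their values were seen. Hes2, Hes7, Hey2 and Ptcra had at most 9 reads in a library, and Hes3 was listed at 0.

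**Figure D5:**
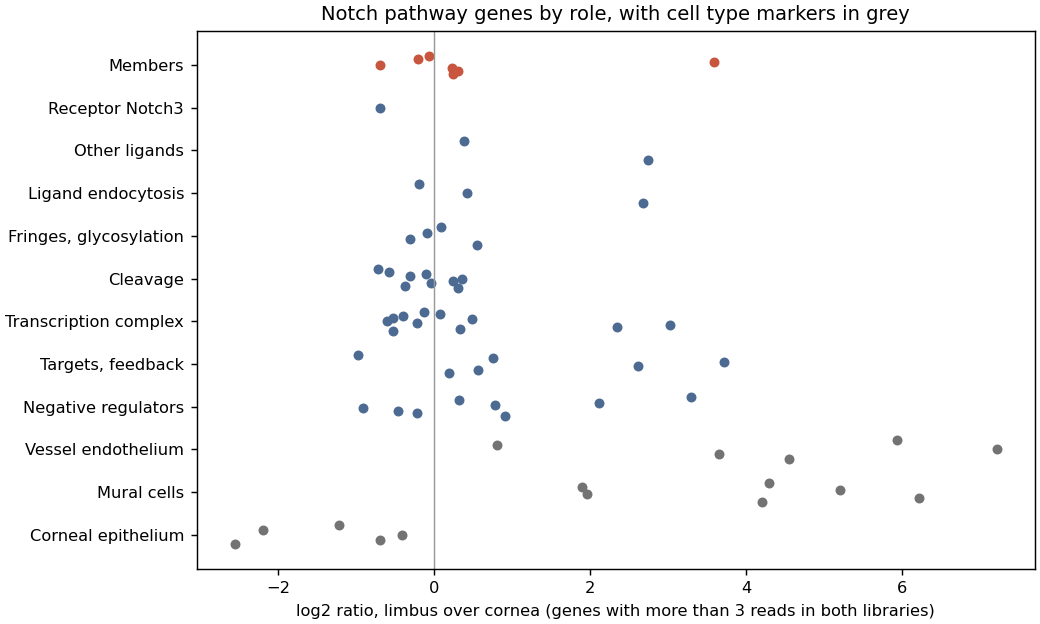
Log2 ratio of limbus over cornea of the members (red), the other pathway genes by role (blue) and 3 lists of cell type markers (grey), each point a gene over the limit of 3 reads in each library. Most pathway genes lie between -0.97 and 1, those far to the limbus side include Hey1 (3.59), Heyl (3.72), Dtx1 (3.29), Tle1 (3.02) and Dlk2 (2.75), and the vessel markers reach 7.21.

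Markers of vessel cells were read mostly in the limbus library, as were Notch4, Dll4 and Hey1. Of 8 markers of blood vessel endothelium, all had reads in both libraries, and the 5 over the limit of 3 reads all lay on the limbal side, with ratios from 0.81 to 7.21. Among all genes tested, 33.2% lay on that side beyond counting error. The 8 together had 245 corneal and 3594 limbal normalized reads. Pecam1 had 6 and 831 reads, Cdh5 had 3 and 421, and Kdr, the marker of this list with the smallest ratio, had 170 and 278. Of 8 markers of mural cells, the contractile cells around vessels, 6 passed that limit and all 6 lay on the limbal side, with a summed level of 371 (cornea) and 3369 (limbus) and Des at 0 corneal reads. Notch4, Dll4 and Hey1 lay on the same side as these markers, and Notch3 on the other. The part of vessel cells in the reads of Notch4, Dll4 and Hey1 was not tested.

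The epithelial markers divided in a different way. As a background for every marker list here, 40.6% of genes tested were higher in the cornea beyond counting error, and 33.2% in the limbus. All 5 markers of corneal epithelium were higher in the cornea. Slurp1 stood at -2.55, Krt12 at -2.19, Aldh3a1 at -1.22, the transcription factor Pax6 at -0.69 and Krt5 at -0.41. Jag1 and Notch3, both at -0.69, lay within the range of these 5. All 5 markers of conjunctival and limbal epithelium were higher in the limbus, from 1.86 for Krt13 to 5.16 for Krt4, far above Notch1, Notch2 and Jag2 at 0.23 to 0.31. The 4 keratocyte markers went both ways, Kera at -2.99 and Aldh1a1 at -2.16 on the corneal side and Ptgds at 3.49 on the limbal side. Lum, at -0.01 (-0.06 to 0.03), was on neither side. The limbus library also held more reads of skeletal muscle, with ratios of 7.38 to 8.71 over 4 markers, of photoreceptors, at 3.02 to 3.34 over 4 markers, and of leukocytes, 5 of 5 markers. Markers of melanocytes (4 of 4) and Schwann cells (all 3 with reads enough) were higher there too. Their part in the values of the members was not tested.

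The scaling moves every ratio by the same amount. Scaling by total reads in place of size factors added 0.21 to all ratios, which put the median of all genes at 0.15 and left 45.1% of genes higher for limbus and 29.7% higher for cornea. Notch1, Notch2, Jag2 and Hey1 then stayed higher in the limbus, at 0.51, 0.45, 0.44 and 3.79. Dll1 joined them at 0.15 (0.01 to 0.28), and Jag1 alone remained higher in the cornea, at -0.49 (-0.57 to -0.40). Relative to the median of all genes, added after the values were seen, Jag1 stood at -0.64 and Hes1 at -0.15. The same 4 and 2 members then lay on the limbal and the corneal side, against 36.3% and 37.6% of all genes tested.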

How the data were processed

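RNA of the mouse cornea and limbus, each pooled, was sequenced. Per the study's methods, CLC Genomics Workbench was used to trim adaptors and to map to GRCm38 (mm10), and normalization was by trimmed mean of M-values. The table is named and laid out as output of DESeq, of which the authors' methods say nothing. For each gene the authors deposited a mean normalized signal over the libraries, a log2 fold change, its standard error, and a p-value with its adjusted value. The p-values were not used.

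Of 40904 rows, 17484 (42.7%) name no gene and stayed out of totals and tests, and 5978 of the 23420 named genes have a mean of 0. The table's accession numbers belong to other genes than its symbols (2 of 18554 that could be looked up in RefSeq were of the named gene), so rows were taken by symbol alone and the accessions were not used. Each mean can be written with whole reads from 2 libraries, where 109 reads of the cornea weigh as much as 102 of the limbus. The mean alone fixed both read numbers for 6143 genes, among them Notch4, Dll4, Hes5 and Hey1. For 11299 genes it allowed several pairs, 42 for Notch1, 37 for Notch2, 46 for Jag1, 45 for Jag2, 17 for Dll1 and 59 for Hes1. There the deposited fold change and standard error were used only to choose the pair. A dispersion (spread beyond counting) was fitted for each gene to give the standard error, so the match rests mainly on the fold change. The pair chosen met the fold change within 0.001 on the log2 scale for 11295 genes. No member was among the other 4. Read numbers are thus derived values, and for these 6 members their direction comes from the deposited fold change. For all members, which library is called cornea and which limbus rests on the sign of that fold change and on the order cornea against limbus.

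Ratios, exact Clopper-Pearson 95% intervals (counting error only), exact Poisson intervals of levels and lower bounds against 3 reads were computed with Python 3.11.15, numpy 2.4.6, scipy 1.17.1 and pandas 2.3.3. The table holds no molecular identifiers, and the intervals do not cover amplification or dissection. Positions and exon lengths are from the GENCODE annotation of GRCm38. Promoter windows are from RefSeq, 8 of 10 members matched by symbol. The members and lists were chosen with earlier results of these data known. Genes named were all members, other pathway genes with a mean of at least 50 and a log2 ratio of at least 1 in size beyond counting error, and Notch3, Rbpj and Nrarp. Other pathway genes in the text were named after their values were seen, as were the marker genes given beside a result. Scaling, filters, pseudocount, interval and length were varied.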

Additional observations from a re-analysis of the deposited data

How the results depend on the processing

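The counts of members on each side kept within 1.5 times under the trimmed mean of M-values, a Wilson interval, centring on the median of all genes, minimum means of 10 and 50, and no filter (6 in the limbus, against 34% of 15572 genes, and 2 in the cornea, against 36.5%). Of all genes tested, 34% lay on the limbal and 39.6% on the corneal side under the trimmed mean, and 36.3% and 37.6% with centring. No share over all genes is given for the Wilson interval or the minimum means. Scaling by total reads left 1 member higher in the cornea, against 29.7% of all genes tested. It moved the median of the members from 0.24 to 0.45 and turned Hes1 from -0.20 to 0.01, because it adds the same 0.21 to every ratio. The mean alone, without the deposited fold change to choose the pair, allows ratios down to -6.36 for Notch1, -8.42 for Notch2 and -6.60 for Jag2, and up to 6.07 for Jag1 and 10.30 for Hes1, so it does not give a direction for these genes. Notch1 over Notch2 per length went from 0.848 to 1.24 in the cornea and from 0.886 to 1.29 in the limbus with the longest coding transcript. No paired analysis was possible because the table holds no value per numbered sample, and leaving out replicates was not run for that reason. A planned comparison of the target proteins was not run. With 0 to 4 cornea reads, the sizes of the differences of Notch4, Dll4 and Hey1 are bounded only loosely.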
